A study of Mus musculus with 17 samples.

Results

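B cells sorted from the lacrimal glands of male NOD mice were compared with B cells sorted from the spleen, over 17097 genes measured on 7 of the study's 17 arrays. The members were the 4 gland and 3 spleen arrays whose titles name B cells, and every gene with a probe set of its own was taken into the comparison. The NOD mouse is an inbred strain prone to autoimmunity, and its males gather lymphocytes in the lacrimal gland, which serves as a model of Sjögren's syndrome. No transgene, knockout or treatment is named for any group. Gland donors were 16 weeks old; for spleen donors the sample labels give 16 weeks and the design text gives 4, so tissue and age cannot be told apart if the design text is right. B cells were live cells positive for CD45 and B220 and negative for NKp46, CD11b, CD11c and CD3. The 4 gland and 3 spleen arrays of CD4 T cells and the 3 arrays of gland epithelium (CD45-, CD326+) served as a further comparison and as a gauge of RNA from other cells. Enzymatic digestion is stated for the gland and not for the spleen. Nothing says that replicates were separate animals, so p-values measure the spread between these samples only, which may be technical.

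B220 is carried by B cells of nearly every stage, so the sort took them as 1 population. The spleen holds follicular B cells, which recirculate, marginal zone B cells, which line the blood sinuses and need Notch2 signals, and transitional B cells newly arrived from bone marrow. A B cell that meets antigen or an inflamed tissue changes its chemokine receptors, switches on NF-kB and its brakes, and may divide. In sorted populations fewer cells of a subset and less RNA per cell cannot be told apart.

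The sort label was borne out by its markers. Ms4a1, which encodes CD20, lay at 11.09, 11.14, 11.01 and 11.07 in the gland arrays and 11.34, 11.15 and 11.30 in the spleen arrays on the log2 scale, against 4.18 in gland CD4 T cells and 3.34 in epithelium. Cd79a, a signalling chain of the B cell receptor, lay at 10.96, 11.08, 10.97 and 11.06 in the gland arrays and 11.07, 11.11 and 11.15 in the spleen arrays, against 4.999 and 4.39. Pax5, the transcription factor that holds B cell identity, was measured by a dim probe set, at 5.06, 5.13, 5.13 and 5.25 in the gland arrays and 5.34, 5.02 and 4.56 in the spleen arrays, against 4.16 in gland CD4 T cells. The arrays of the groups overlapped for Cd79a and Pax5; for Ms4a1 every gland array lay below every spleen array, by a small difference that was not called (-0.19, limma adjusted p = 0.804, and 0.143 with the B cell arrays alone). Of 17 measured genes of B cell identity 0 were called in either direction, and their median difference was -0.09. The same count of 0 held for 20 components of B cell receptor signalling (median -0.02) and for 20 receptors that damp it (median -0.14), with 1, 5 and 5 genes at an unadjusted p under 0.05 in the 3 lists (limma).

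Calls required both a 2-fold difference and an adjusted p below 0.05 (limma, Benjamini-Hochberg across the 17097 genes). By this rule 441 genes (2.58%) were higher and 273 (1.6%) lower in gland B cells. The median difference of all genes was 0.00. Of the 441 higher genes 337 (76.4%) lay outside the immediate early, interferon, secretory and epithelial lists, and so did 272 (99.6%) of the 273 lower genes. Gland and spleen arrays did not overlap in 429 (97.3%) of the higher and 270 (98.9%) of the lower genes, and over all genes every gland B array was above every spleen B array in 14.5% and below in 16.1%. Epithelial transcripts were present in the gland B cell arrays: 17 of 53 measured epithelial identity genes and 21 of 58 lacrimal secretory genes were higher than in spleen B cells, and the mean level of the secretory list was 5.49 to 5.67 over the gland B arrays, 3.97 to 4.28 over the spleen B arrays and 7.29 to 8.12 in epithelium. Among the 337 higher genes 199 (59.1%) had an epithelial level 4-fold or more above that of spleen B cells, against 1660 (9.71%) of all genes. Their part in each gene's increase was not tested, so the epithelial level is given beside many of the increases below, though not all. Genes given without it may be higher in epithelium too, as were Cdkn1a (7.91), Trib1 (7.59) and Bag3 (7.93). Of the 337 genes 126 (37.4%) were at least as high in gland B cells as in epithelium. With those 1660 genes left out of the fit 177 genes were higher and 262 lower, counted with the genes of all lists and not among the 337 alone.

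**Figure D1:**
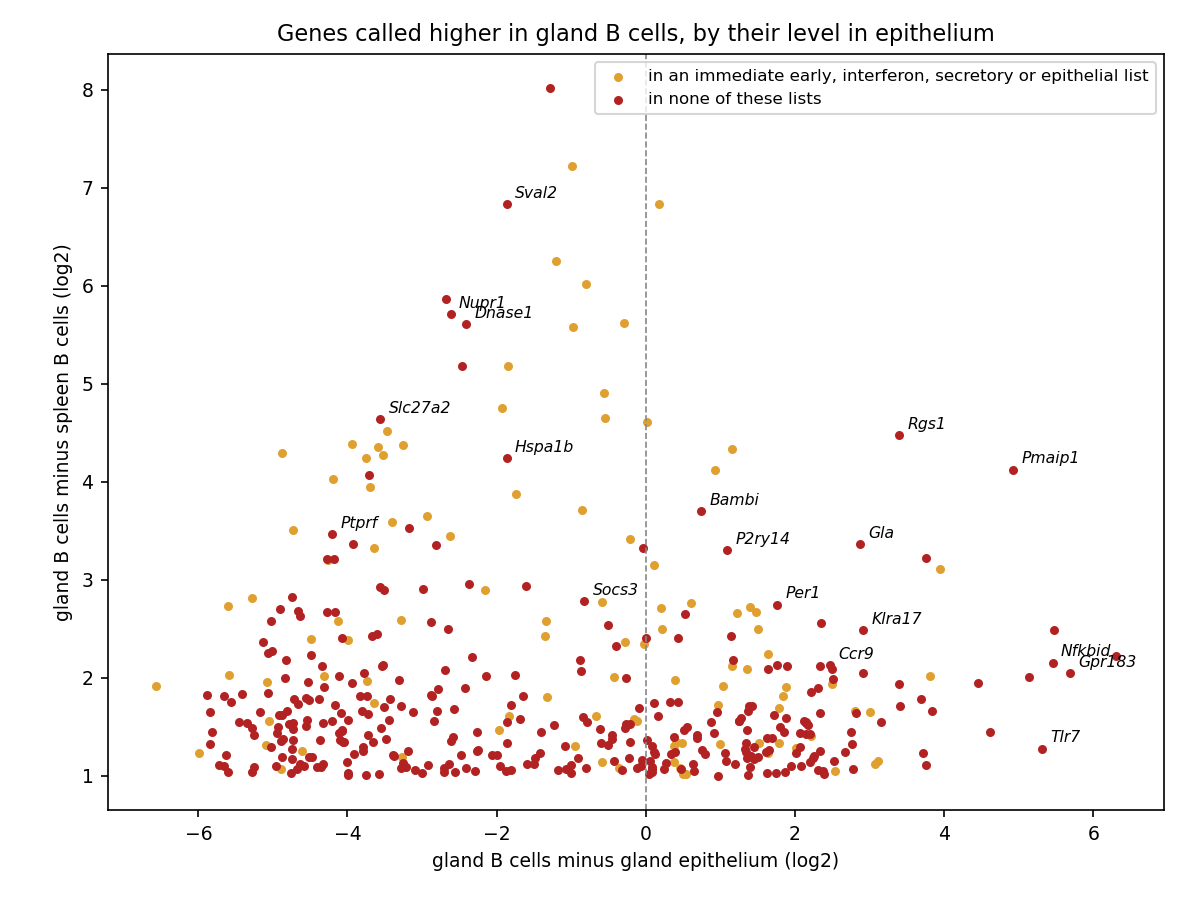
Each point is 1 of the 441 genes called higher in gland than in spleen B cells. The x axis gives the mean of the gland B arrays minus the mean of the epithelium arrays and the y axis the mean of the gland B arrays minus that of the spleen B arrays, both as log2 differences; orange points belong to the immediate early, interferon, secretory or epithelial lists. The 169 points at or right of the dashed line were at least as high in gland B cells as in epithelium, among them Rgs1, Pmaip1 and Nfkbid, while Sval2, Nupr1 and Dnase1 lay left of it. Gene models without a proper name are plotted unlabelled, the highest point among them.

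Among other cell types, 0 of 17 T cell genes were called, and Cd3e lay at 5.87, 5.39, 5.14 and 5.90 in the gland arrays and 4.30, 4.66 and 5.82 in the spleen arrays, against 9.96 in gland CD4 T cells. Of 17 macrophage genes 1 was called, Ms4a7, which was lower, and of 9 natural killer cell genes 0 were. B220 also marks plasmacytoid dendritic cells. Of the 9 measured genes of that list only Ccr9 was called, but 6 had an unadjusted p under 0.05 (limma), and the median was 0.37. The mean level of the list was 8.27, 8.20, 7.61 and 7.94 in the gland arrays and 7.64 to 7.65 over the spleen B arrays. Gland replicate 3 was thus lowest, and the other gland arrays lay above every spleen array. Of 11 dendritic cell genes 3 were higher (Fscn1, Clec10a and Flt3), Fscn1 by less than 2-fold over the mean of its probe sets (0.70, against 2.07 on the one used). Clec10a, a lectin of dendritic cells and macrophages, lay at 7.06, 6.84, 3.80 and 4.36 in the gland arrays and 3.54, 3.68 and 3.77 in the spleen arrays, so replicates 3 and 4 were near the spleen level. Its call was lost without gland replicate 1 (limma adjusted p = 0.0906) or 2 (0.101) and without any of the spleen arrays. With the B cell arrays alone its adjusted p was 0.148. Further lists gave single calls: Cd8a of 8 CD8 T cell genes (1.47), Sparc of 13 fibroblast genes (1.11), Mylk of 9 myoepithelial genes (1.65), Ltf, also a lacrimal secretory product, of 12 neutrophil genes, and Car2 (higher) and Hba-a1 (lower) of 10 red cell genes. Cd8a (0.90), Sparc (0.69) and Mylk (0.61) rose by less than 2-fold over the mean of their probe sets. None of 9 mast cell, 7 platelet or 13 endothelial genes was called, with 1, 2 and 2 at an unadjusted p under 0.05 (limma). Gland replicate 3 stood apart in general, with correlations to the other gland arrays from 0.986, and spleen replicate 3 carried neutrophil transcripts such as S100a8, at 3.59, 3.32 and 9.63 in the spleen arrays. Without gland replicate 3 there were 458 higher and 236 lower genes, and leaving out any 1 of the 7 B cell arrays gave 392 to 458 higher and 236 to 298 lower.

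Gene models without a proper name (Gm, Rik or accession symbols) are left out of the largest changes given here, as are genes below the median of all values in both groups. The deposited values carry no detection calls, so where the lower group lay below that median only the log2 difference is given, with no fold, and it may be limited by background. The largest decreases took in receptors, transcription factors and genes that are better known from other tissues. Tsga13, named for its testis expression, lay at 2.25, 2.39, 2.08 and 2.67 in the gland arrays and 7.29, 6.81 and 7.10 in the spleen arrays, a difference of -4.72 ± 0.13 (SE, limma adjusted p = 2.28e-12). All 4 gland arrays were at the level of gland CD4 T cells (2.16) and epithelium (2.05). Ffar2, which senses acetate and other short-chain fatty acids of gut bacteria, lay at 4.26, 4.38, 4.10 and 4.79 in the gland arrays and 8.74, 8.55 and 8.71 in the spleen arrays (-4.28 ± 0.17, adjusted p = 1.63e-10), with the gland arrays near the mean of gland CD4 T cells (4.11). Wfdc21, a secreted protein of the whey acidic protein family, lay at 3.94, 4.09, 4.49 and 4.20 in the gland arrays and 7.52, 7.60 and 8.25 in the spleen arrays (-3.61 ± 0.15, adjusted p = 2.19e-10). In each of these 3 genes every gland array was lower than every spleen array by a wide margin. Gland B cells thus had levels of Tsga13, Ffar2 and Wfdc21 below the median of all values, 4.71.

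Niban3, a gene expressed mainly in B cells, lay at 8.10, 7.79, 7.27 and 7.57 in the gland arrays and 10.03, 10.21 and 10.11 in the spleen arrays and remained well above the level in gland CD4 T cells (5.33). Dnase1l3, a secreted nuclease that degrades DNA in chromatin from dying cells, lay at 5.08, 5.18, 5.80 and 5.08 in the gland arrays and 7.61, 7.59 and 7.75 in the spleen arrays (-2.36 ± 0.22, adjusted p = 1.77e-06). Gland replicate 3 was the highest of the gland arrays for Dnase1l3 and still below every spleen array. Wdr38, a protein with WD repeats, differed by -2.41 ± 0.11 (adjusted p = 6.17e-10), with all 3 spleen arrays between 8.37 and 8.39. Nebl, which binds actin, fell (-3.13), and so did Ube2e2, a ubiquitin-conjugating enzyme (-2.89). Stom, a membrane scaffold protein, fell by 5.32-fold on the probe set used, but by less than 2-fold over the mean of its probe sets (-0.80). Hba-a1, an alpha globin, lay at 6.58, 5.65, 5.38 and 7.74 in the gland arrays and 8.34, 9.16 and 8.58 in the spleen arrays, and Tmem26, a membrane protein, at 4.38, 4.88, 4.34 and 4.26 in the gland arrays and 6.98, 6.59 and 6.76 in the spleen arrays. Nebl (9.26), Ube2e2 (9.09), Stom (8.06) and Hba-a1 (10.97) were higher in gland epithelium than in either B cell group, so their decrease ran against the epithelial level.

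**Figure D2:**
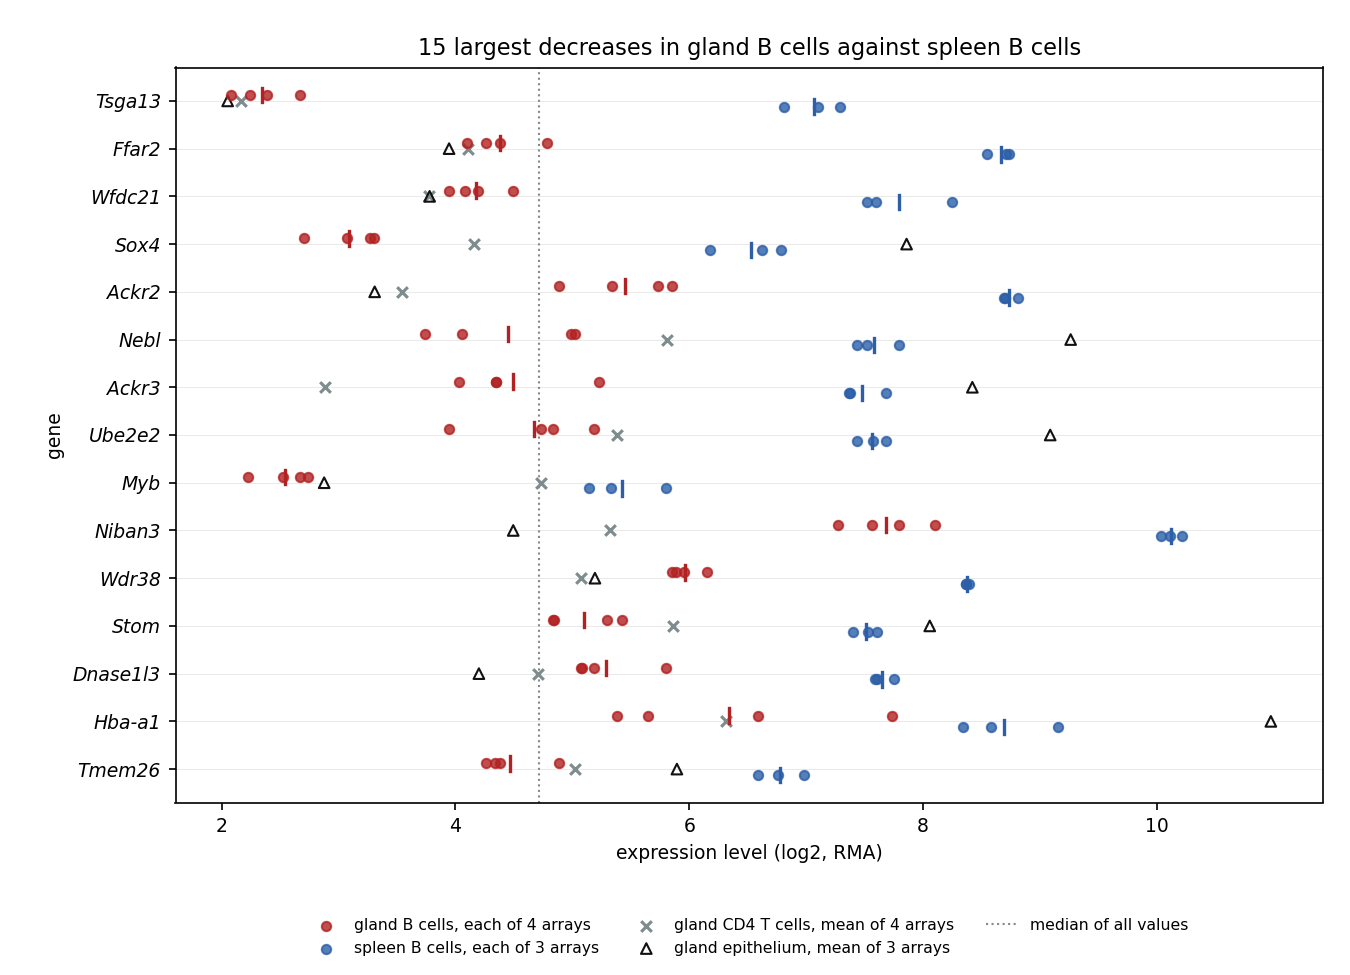
Each row is 1 of the 15 largest decreases among called genes with a proper name, no overlap between arrays and a spleen mean above the median of all values, and the x axis gives the log2 expression level. Red dots are the 4 gland B arrays and blue dots the 3 spleen B arrays, with a tick at each mean; crosses are means of gland CD4 T cells and triangles of gland epithelium. In every row the red dots lie left of the blue ones, and for Sox4, Nebl, Ackr3 and Ube2e2 the triangle lies right of the red dots.

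Genes of immature and transitional B cells were split, with 6 of 18 measured members lower and 2 higher in the gland (median -0.05). Sox4, a transcription factor of early lymphoid cells, lay at 2.70, 3.07, 3.31 and 3.27 in the gland arrays and 6.78, 6.18 and 6.62 in the spleen arrays (-3.44 ± 0.27, adjusted p = 3.76e-07). Myb, which drives proliferating progenitors, lay at 2.23, 2.67, 2.74 and 2.53 in the gland arrays and 5.81, 5.14 and 5.33 in the spleen arrays (-2.89 ± 0.16, adjusted p = 1.02e-08). Vpreb3, an escort of the assembling receptor in B cell precursors, lay at 8.01, 8.05, 8.02 and 8.37 in the gland arrays and 9.67, 9.71 and 9.81 in the spleen arrays (-1.62 ± 0.13, adjusted p = 6.28e-07). Of the others, Cd93, a surface marker of transitional B cells, Rag1, which cuts antigen receptor genes, and Vpreb1, a piece of the surrogate light chain, fell (-1.51, -1.46 and -1.32). Rag1 in the gland (3.14) was at the level of gland CD4 T cells (3.03). For all 6 genes the gland arrays lay below the spleen arrays. Flt3, a cytokine receptor of progenitors and dendritic cells, rose instead, from 3.68, 3.92 and 3.75 in the spleen arrays to 5.05, 5.87, 5.45 and 4.82 in the gland arrays (adjusted p = 7.19e-05), and it also belongs to the dendritic cell list. Cd93 fell by less than 2-fold over the mean of its probe sets (-0.56).

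Of 16 measured marginal zone genes 7 were lower and 0 higher, with a median of -0.83 beside 0.00 for all genes. S1pr3, a sphingosine phosphate receptor of marginal zone B cells, lay at 6.74, 6.22, 7.01 and 6.49 in the gland arrays and 8.90, 8.68 and 8.70 in the spleen arrays (-2.15 ± 0.25, adjusted p = 2.66e-05). Dtx1, a ubiquitin ligase that Notch induces, lay at 7.32, 6.80, 7.47 and 7.16 in the gland arrays and 9.21, 9.16 and 9.26 in the spleen arrays (-2.02 ± 0.23, adjusted p = 2.09e-05). Cd1d1, which presents lipids to natural killer T cells, lay at 7.63, 7.70, 7.72 and 7.86 in the gland arrays and 9.13, 9.16 and 9.21 in the spleen arrays (-1.44 ± 0.12, adjusted p = 5.46e-07), with the arrays of each group close together. All 3 genes were clearly expressed in both groups, and their gland arrays lay more than 1 unit below the lowest spleen array. Hes5, a repressor and Notch target, and Cd9, a tetraspanin, fell (-1.51 and -1.32). Asb2, a ubiquitin ligase adaptor, fell by 2.11-fold and Pik3r4, a regulatory subunit of the endosomal lipid kinase complex, by 2.05-fold. Pik3r4 was near the 2-fold limit and passed under it without gland replicate 3 (-0.98). Cr2, the complement receptor CD21 that is most abundant on marginal zone cells, differed by -0.43 ± 0.10 (adjusted p = 0.0051), short of 2-fold, and Notch2 itself by -0.05 (adjusted p = 0.811). Rbpj, the DNA-binding partner of Notch, and Nrarp, a Notch feedback inhibitor, had differences of 0.60 and 0.87. Of the 26 measured Notch pathway genes only Dtx1 and Hes5 were called, and the median was -0.01.

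Cell division genes were lower as a group: 14 of 37 measured members were lower, 0 were higher, and the median was -0.76. No other programme list held as many lower genes. Of the 37 members 32 had an unadjusted p under 0.05, and only Foxm1, a transcription factor of the G2 phase, had a difference above 0, at 0.04. Mki67, the proliferation antigen Ki-67 that coats mitotic chromosomes, lay at 5.92, 6.06, 6.22 and 6.85 in the gland arrays and 7.84, 8.19 and 7.43 in the spleen arrays (-1.56 ± 0.27, adjusted p = 0.00093). Hmmr, a spindle protein, lay at 3.03, 3.02, 2.90 and 3.79 in the gland arrays and 5.13, 5.72 and 4.69 in the spleen arrays (-1.99 ± 0.29, adjusted p = 0.000177). Birc5, the chromosome passenger survivin, lay at 6.31, 6.06, 6.27 and 6.81 in the gland arrays and 7.74, 8.41 and 7.56 in the spleen arrays (-1.54 ± 0.24, adjusted p = 0.000318). In these 3 genes gland replicate 4 was the highest gland array and lay below every spleen array. Aurkb, the kinase that survivin guides, Nusap1, which bundles spindle microtubules, Bub1, a spindle checkpoint kinase, and Top2a, which untangles DNA, fell as well (-1.56, -1.77, -1.51 and -1.10). Over the mean of their probe sets Hmmr (-0.77), Nusap1 (-0.87), Bub1 (-0.84) and Top2a (-0.37) were still lower, but by less than 2-fold. In gland CD4 T cells the mean levels of Mki67 (8.35) and Hmmr (5.77) were above those of either B cell group.

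Promoters of mitotic genes often carry repeated CCAAT boxes, which bind the factor NF-Y, and a cell cycle homology element with the letters TTTGAA, at which their genes are silenced outside of division. The promoters of Mki67 (chr7:135716380-135716629, minus strand) and Hmmr (chr11:40733438-40733687, minus strand) are shown because both genes fell and both carry several such boxes. They are the 250 bases before the RefSeq start on GRCm38.p6, 5′ to 3′, with matches to CCAAT or TTTGAA on either strand in capitals.
Mki67: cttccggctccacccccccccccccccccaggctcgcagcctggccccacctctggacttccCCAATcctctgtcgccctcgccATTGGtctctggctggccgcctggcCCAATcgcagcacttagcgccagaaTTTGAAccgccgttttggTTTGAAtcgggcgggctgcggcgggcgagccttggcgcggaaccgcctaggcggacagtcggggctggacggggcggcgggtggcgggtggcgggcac
Hmmr: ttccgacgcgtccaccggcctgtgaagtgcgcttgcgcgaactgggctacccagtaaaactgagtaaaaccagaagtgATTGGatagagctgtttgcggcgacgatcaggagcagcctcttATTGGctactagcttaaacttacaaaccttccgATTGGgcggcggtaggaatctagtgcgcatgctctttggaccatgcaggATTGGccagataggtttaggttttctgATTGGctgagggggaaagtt
The Mki67 window held 3 CCAAT matches, the first 188 bases before the start, and 2 TTTGAA matches, at 116 and 98 bases before it. The Hmmr window held 5 CCAAT matches, from 172 to 20 bases before the start, and 0 of TTTGAA. Of the 14 lower genes of the list 11 had a promoter in the table, and 10 of their 12 promoters (83.3%) held CCAAT, against 33.8% of all 32851 promoters. Across the whole measured list the share was 27 of 33 promoters (81.8%), so lower members and the list as a whole had like shares. TTTGAA was in 5 of the 12 (41.7%), in 16 of the 33 of the whole measured list (48.5%) and in 16% of all promoters. These are matches of letters, not measured binding.

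DNA replication genes moved less, with 4 of 38 lower, 1 higher and a median of -0.23. The lower genes were Ccne1, the cyclin that starts S phase (5.12, 5.26, 4.54 and 5.06 in the gland arrays and 6.08, 6.41 and 6.19 in the spleen arrays), Rrm2, which makes deoxynucleotides (-1.20), Tk1, thymidine kinase (-1.05), and E2f8 (-1.02). Over the mean of their probe sets Rrm2 (-0.89) and E2f8 (-0.62) were under 2-fold, and without spleen replicate 2 so were E2f8 (-0.80) and Tk1 (-0.98). Cdt1, which licenses replication origins, went the other way, at 10.52, 10.32, 10.67 and 10.47 in the gland arrays and 9.22, 9.52 and 9.42 in the spleen arrays (1.11 ± 0.31, adjusted p = 0.0211). That call depended on single arrays, since without spleen replicate 1 the adjusted p was 0.0798. Among 25 G1 cyclins and inhibitors, Cdk6, a kinase that pushes cells into the cycle, fell (-1.36 ± 0.12, adjusted p = 1.37e-06) and Mxd4, an antagonist of Myc, fell too (-1.09 ± 0.15, adjusted p = 9.72e-05). Both were under 2-fold over the mean of their probe sets (Cdk6 -0.76, Mxd4 -0.51). Cdkn1a, the inhibitor p21, rose from 5.64, 5.70 and 6.14 in the spleen arrays to 7.11, 6.93, 8.16 and 7.01 in the gland arrays (adjusted p = 0.0111). Gland replicate 3 was more than 1 unit above the other 3 gland arrays for Cdkn1a.

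**Figure D3:**
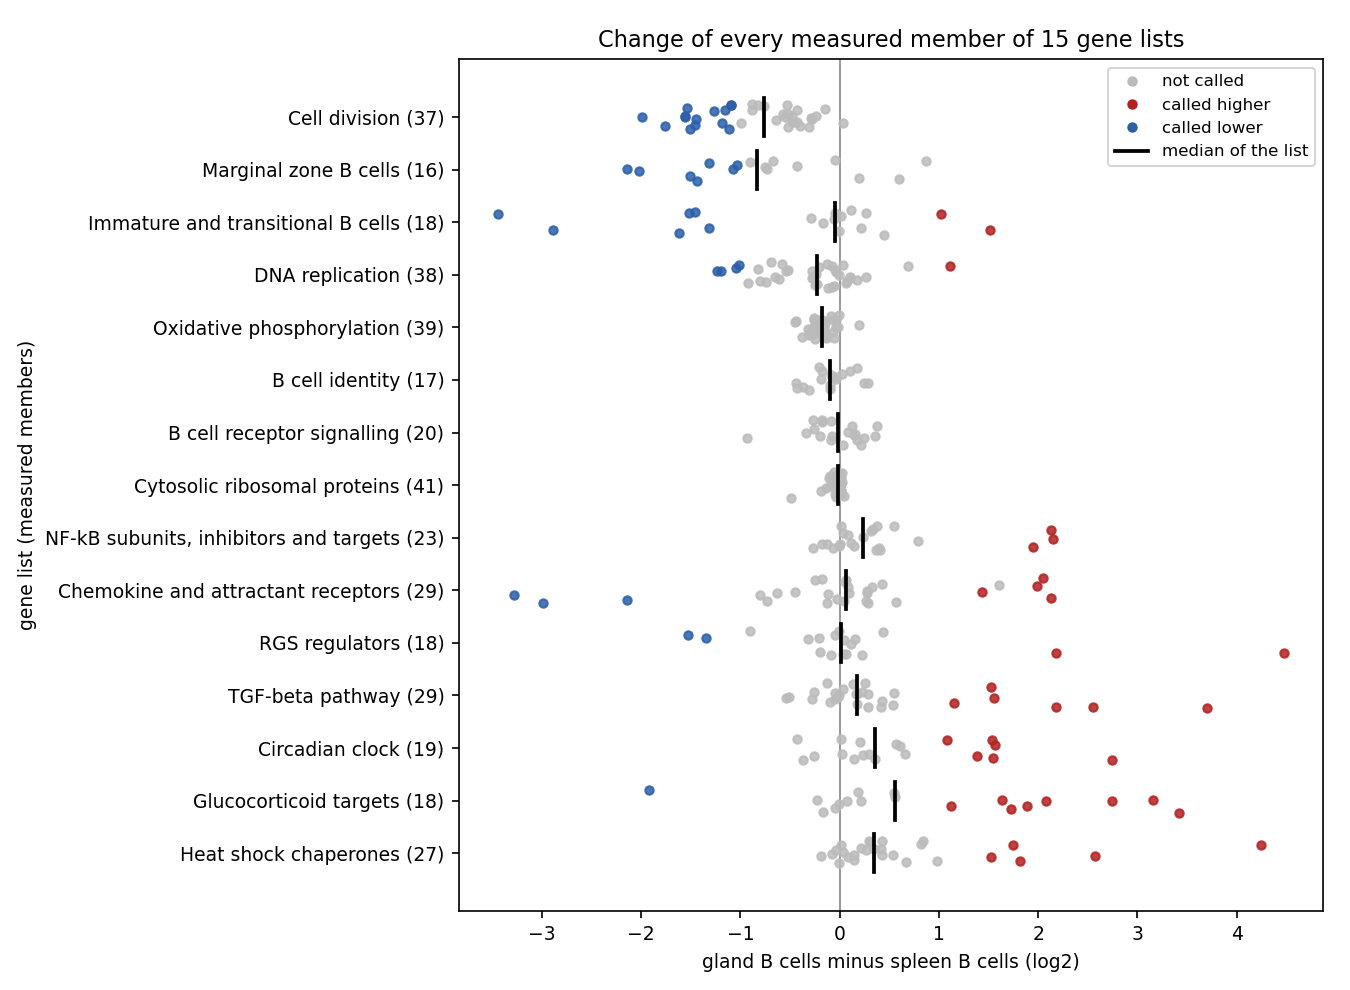
Each dot is 1 measured member of 1 of 15 gene lists, with the number of measured members in brackets, and the x axis gives gland minus spleen B cells in log2 units. Red and blue dots passed both the adjusted p and the 2-fold limit, and black bars are list medians. The cell division and marginal zone lists sit left of 0, the B cell identity and ribosomal lists at 0, and most other lists hold a few genes far to the right.

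Receptors that guide B cells through tissues changed in both directions: of 29 measured chemokine and attractant receptors 4 were higher and 3 lower (median 0.06). Gpr183, also called EBI2, which steers activated B cells along oxysterol gradients to the outer follicle, lay at 10.55, 10.60, 10.46 and 10.82 in the gland arrays and 8.46, 8.57 and 8.66 in the spleen arrays (2.05 ± 0.44, adjusted p = 0.004), a 4.13-fold increase. Its level in epithelium was 4.92 and in gland CD4 T cells 9.12, so gland B cells held the highest level of the groups measured. Cxcr3, the receptor for interferon-induced chemokines, lay at 7.88, 7.82, 7.30 and 7.98 in the gland arrays and 5.61, 6.20 and 5.45 in the spleen arrays (1.99 ± 0.60), with gland arrays all above spleen arrays. The adjusted p was 0.0312 with all groups in the model and 0.000733 with the B cell arrays alone; leaving out any of 6 single B cell arrays raised it to between 0.0525 and 0.107. The model shares 1 spread among groups, and Cxcr3 lay at 7.59, 3.94 and 4.16 in the 3 epithelium arrays.

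Ccr9, which directs lymphocytes to the small intestine and is also high on plasmacytoid dendritic cells, lay at 8.88, 8.54, 5.87 and 7.34 in the gland arrays and 5.70, 5.18 and 5.70 in the spleen arrays. Replicates 1 and 2 were about 3 units above the spleen level and replicate 3 was nearly at it. With the B cell arrays alone its adjusted p was 0.0576. Klra17, a lectin-like receptor of plasmacytoid dendritic cells and myeloid cells, followed the same order, at 8.85, 8.78, 5.50 and 6.81 against 4.77, 4.82 and 5.40 (adjusted p = 0.0299, and 0.0613 with the B cell arrays alone). Lair1, an inhibitory collagen receptor, also had this order, at 8.69, 8.54, 5.34 and 7.26 against 5.98, 5.98 and 6.31, and was not called (adjusted p = 0.302). Replicates 1 and 2 had the highest and replicate 3 the lowest plasmacytoid dendritic cell list level of the gland arrays, and the part of such cells in these genes was not tested.

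The complement receptor C3ar1 was the fourth increase, dim at 3.80, 3.94, 5.10 and 4.33 in the gland arrays. Its call was lost without gland replicate 2, 3 or 4 or any of the spleen arrays (limma adjusted p from 0.057 to 0.181). Over the mean of its probe sets the difference was 0.70 (adjusted p = 0.134).

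Scavenging receptors, which take up chemokines without signalling to G proteins, were among the decreases. Ackr2, which clears inflammatory CC chemokines, lay at 5.85, 4.88, 5.34 and 5.73 in the gland arrays and 8.70, 8.69 and 8.81 in the spleen arrays (-3.28 ± 0.19, adjusted p = 1.71e-08), a 9.72-fold decrease. Ackr3, which takes up Cxcl12, lay at 4.35, 4.35, 5.23 and 4.03 in the gland arrays and 7.38, 7.36 and 7.69 in the spleen arrays (-2.99 ± 0.21, adjusted p = 1.25e-07). For Ackr2 the 3 probe sets differed in size, from -0.78 to -3.28, but had the same direction. Receptors that hold B cells in follicles or let them leave did not pass: Cxcr5, the Cxcl13 receptor, differed by 0.33 (adjusted p = 0.362), and S1pr1, the exit receptor, by 0.42 (adjusted p = 0.238). For S1pr1 the 95% interval of the difference was -0.06 to 0.91. Among 33 integrins, selectins and adhesion genes only Nrp1, a semaphorin coreceptor, was called (1.62), just under 2-fold over the mean of its probe sets (0.96), and it was far higher in epithelium (11.25) than in gland B cells (6.37).

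Regulators of G protein signalling, the RGS proteins that switch chemokine receptors off, held the largest increase among listed genes that were higher in gland B cells than in epithelium and outside the immediate early, interferon, secretory and epithelial lists. Rgs1 lay at 7.15, 7.76, 7.44 and 8.10 in the gland arrays and 3.03, 3.18 and 3.20 in the spleen arrays (4.47 ± 0.75, adjusted p = 0.000686). Every gland array was more than 3 units above every spleen array. The model shares 1 spread among groups, and the 3 epithelium arrays entered it at 7.28, 2.59 and 2.77; with the B cell arrays alone the adjusted p was 8.23e-06. Rgs2 lay at 10.49, 10.58, 10.74 and 10.98 in the gland arrays and 8.50, 8.52 and 8.52 in the spleen arrays (2.18 ± 0.11, adjusted p = 1.91e-09), and its 3 spleen arrays were nearly identical. Rgs10, which is abundant in resting lymphocytes, fell, at 7.57, 7.49, 6.97 and 6.89 in the gland arrays and 8.67, 8.73 and 8.88 in the spleen arrays (-1.53 ± 0.37, adjusted p = 0.0083). Rgs13, known from germinal centre B cells, was dim in all arrays, at 1.79, 2.09, 3.57 and 2.76 in the gland arrays and 3.80, 4.45 and 3.44 in the spleen arrays, below the median of all values, and its decrease was lost with the B cell arrays alone (adjusted p = 0.0637). The other 14 of 18 measured members were not called.

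Receptors for purines, lipids and metabolites gave 2 increases and 2 decreases among 33 measured. P2ry14, the receptor for UDP-glucose, which stressed cells release, lay at 6.63, 6.32, 5.99 and 5.002 in the gland arrays and 2.29, 2.95 and 2.81 in the spleen arrays (3.30 ± 0.44, adjusted p = 8.13e-05). Gland B cells (5.99) were above gland CD4 T cells (3.58) and epithelium (4.90), with gland replicate 4 lowest of the gland arrays. P2ry13, an ADP receptor, rose (1.09), near the 2-fold limit, and leaving out any 1 of 4 B cell arrays, among them spleen replicate 1, ended its call (adjusted p = 0.0535 without that replicate). Besides Ffar2, Lpar2, a lysophosphatidic acid receptor, fell by 2.06-fold, and under 2-fold without gland replicate 3 (-0.90).

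Of 34 measured chemokine ligands 7 were higher and 0 lower (median 0.18), and 3 of the 7 are interferon or epithelial list genes. Cxcl13, the follicular attractant of B cells, lay at 5.86, 5.78, 4.80 and 6.20 in the gland arrays and 3.09, 3.14 and 2.79 in the spleen arrays (2.65 ± 0.36, adjusted p = 9.33e-05), while its mean was 6.83 in gland CD4 T cells and 5.13 in epithelium. Ccl9, a macrophage attractant, rose from 4.39, 4.39 and 5.41 to 7.85, 6.82, 7.66 and 8.31 and stood at 11.22 in epithelium. Cxcl17, a mucosal chemokine, rose (1.75) and stood at 10.55 in epithelium. Ccl8, a monocyte attractant, lay at 6.41, 5.27, 3.75 and 5.32 in the gland arrays, with replicate 3 near the spleen arrays (3.69, 3.32 and 3.41), and it was not called with the B cell arrays alone (adjusted p = 0.0563). Of these 4 ligands Cxcl13 and Ccl8 were higher in gland B cells than in epithelium, and for Cxcl13 gland CD4 T cells were higher still.

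NF-kB, the transcription factor family that antigen, CD40 and Toll-like receptors switch on, showed increases in 3 of 23 measured subunits, inhibitors and targets, and 0 decreases (median 0.23). Nfkbid, the nuclear inhibitor IκBNS that B cells need for antibody responses, lay at 9.88, 9.63, 9.32 and 9.78 in the gland arrays and 7.41, 7.70 and 7.39 in the spleen arrays (2.15 ± 0.58), a 4.45-fold increase. Tnfaip3, the ubiquitin editor A20 that shuts the pathway off, lay at 9.44, 9.54, 10.59 and 9.71 in the gland arrays and 7.70, 7.63 and 7.76 in the spleen arrays (2.13 ± 0.38, adjusted p = 0.00109), a 4.36-fold increase. Rel, the c-Rel subunit that drives B cell proliferation and survival, lay at 8.34, 8.50, 10.23 and 8.60 in the gland arrays and 6.86, 7.07 and 6.98 in the spleen arrays (1.95 ± 0.41, adjusted p = 0.00332), with gland replicate 3 more than 1 unit above the other gland arrays. All 3 genes were higher in gland B cells than in epithelium (4.20, 7.92 and 4.46), and Nfkbid and Rel also than in gland CD4 T cells (8.43 and 7.86). In CD4 T cells the gland minus spleen change was 1.28 for Nfkbid, 3.36 for Tnfaip3 and 2.67 for Rel. The difference between the B and CD4 T changes was called for none of the 3. The list median was 0.92 for CD4 T cells. The adjusted p of Nfkbid was 0.0178, 0.0579 without spleen replicate 1, 0.06 without spleen replicate 3 and 7.18e-05 with the B cell arrays alone. Nfkbia, the classical inhibitor and a fast NF-kB target, differed by -0.01 (adjusted p = 0.972), with a 95% interval of -0.25 to 0.24.

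The 3 promoters are shown because the genes moved together and each holds the loose κB letters, which are GGGA, any 4 bases and CC. They are the 250 bases before the RefSeq start on GRCm38.p6 for Nfkbid (chr7:30422156-30422405, plus strand), Tnfaip3 (chr10:19015411-19015660, minus strand) and Rel (chr11:23770970-23771219, minus strand), 5′ to 3′, with the κB letters and any TGACGTCA, the cyclic AMP response element, in capitals.
Nfkbid: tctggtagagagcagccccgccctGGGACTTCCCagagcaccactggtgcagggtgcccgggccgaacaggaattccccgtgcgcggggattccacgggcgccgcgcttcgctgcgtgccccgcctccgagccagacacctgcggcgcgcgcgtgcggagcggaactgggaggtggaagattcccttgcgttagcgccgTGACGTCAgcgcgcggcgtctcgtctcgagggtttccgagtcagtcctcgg
Tnfaip3: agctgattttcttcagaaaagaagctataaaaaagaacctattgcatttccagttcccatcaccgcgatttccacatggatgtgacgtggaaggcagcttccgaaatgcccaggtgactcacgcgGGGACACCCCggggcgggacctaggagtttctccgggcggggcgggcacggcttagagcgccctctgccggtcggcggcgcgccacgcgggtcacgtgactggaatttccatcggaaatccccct
Rel: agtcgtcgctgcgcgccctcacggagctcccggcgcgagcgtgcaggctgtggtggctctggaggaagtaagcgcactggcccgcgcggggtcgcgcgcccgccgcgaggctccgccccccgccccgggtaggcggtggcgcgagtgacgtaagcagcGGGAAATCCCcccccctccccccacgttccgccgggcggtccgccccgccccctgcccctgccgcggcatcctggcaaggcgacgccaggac
The κB letters began 226, 125 and 92 bases before the starts of Nfkbid, Tnfaip3 and Rel, and Nfkbid also held TGACGTCA 51 bases before its start. The 3 genes have 6 promoters in the table, 4 of which (66.7%) hold the κB letters on either strand, against 17.6% of all promoters and 26.8% of the 422 promoters of all higher genes. The uncalled members of the NF-kB list were not counted. Several promoters of 1 gene are not independent, and a match says nothing of binding.

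**Figure D4:**
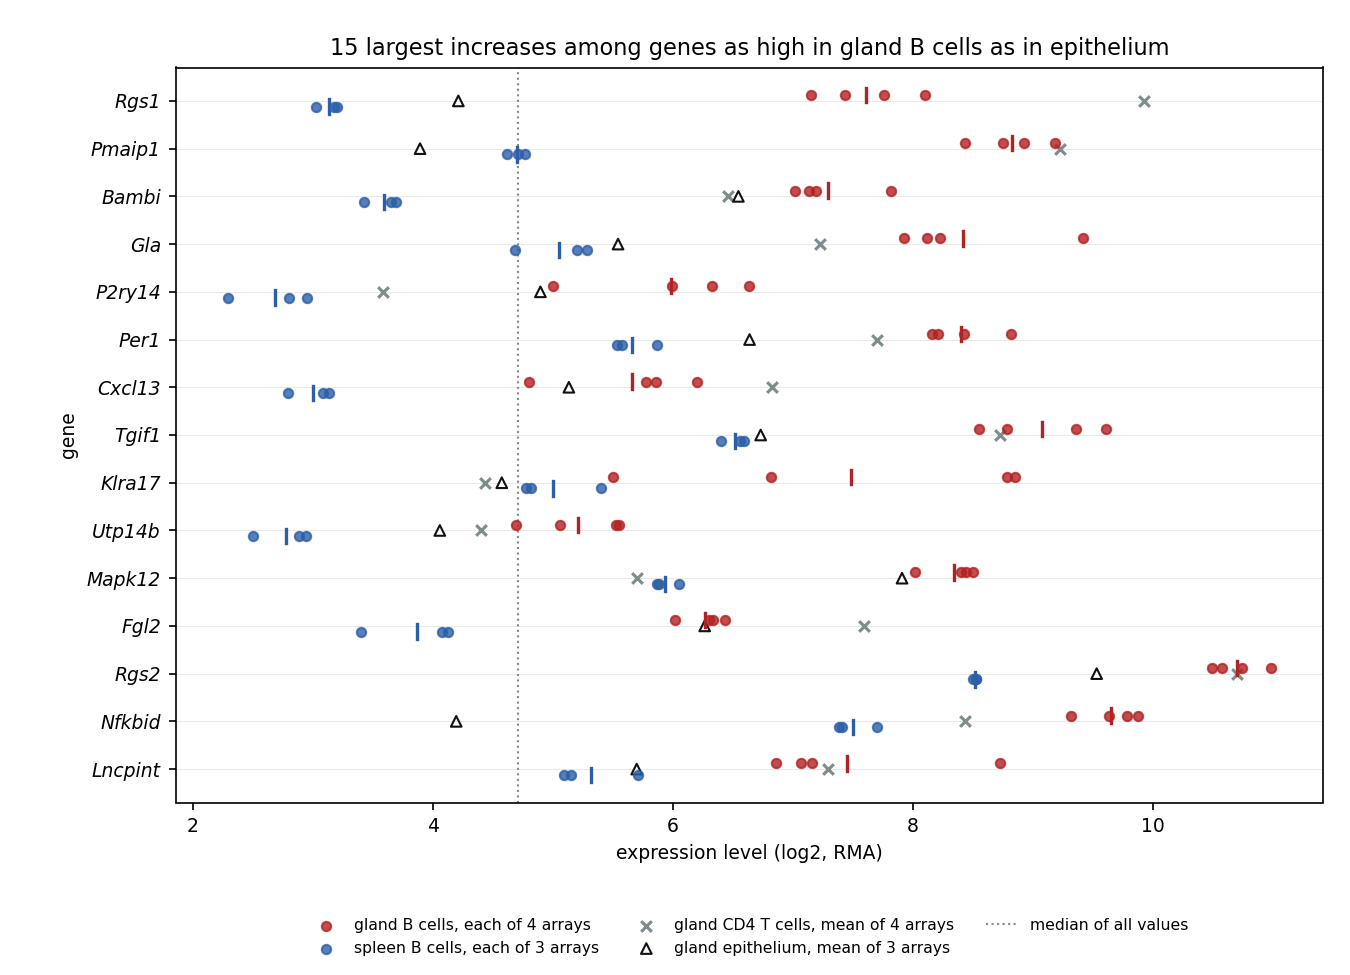
Each row is 1 of the 15 largest increases among called genes with a proper name, a gland mean above the median of all values and no overlap between arrays, outside the immediate early, interferon, secretory and epithelial lists and at least as high in gland B cells as in epithelium. The x axis gives the log2 expression level, red dots the 4 gland B arrays, blue dots the 3 spleen B arrays, crosses and triangles the means of gland CD4 T cells and epithelium. Rgs1 and Pmaip1 show the widest gaps, Klra17 the widest spread among gland arrays, and gland CD4 T cells lie right of gland B cells for Rgs1, Pmaip1, Cxcl13 and Fgl2.

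Death regulators were led by Pmaip1, which encodes the BH3-only protein Noxa that neutralises Mcl1. Pmaip1 lay at 8.43, 8.93, 9.18 and 8.75 in the gland arrays and 4.71, 4.61 and 4.77 in the spleen arrays (4.12 ± 0.46, adjusted p = 1.52e-05), and at 3.89 in epithelium and 9.23 in gland CD4 T cells. The other called members of 21 were Fas, the death receptor, at 7.02, 7.31, 7.08 and 7.35 in the gland arrays and 6.03, 6.44 and 5.99 in the spleen arrays (1.04 ± 0.11, adjusted p = 7.76e-06), and Bid, which links death receptors to mitochondria and fell (-1.30 ± 0.13, adjusted p = 3.22e-06). The Fas increase was just over 2-fold and passed under it without gland replicate 2 (0.998) or 4 (0.98) or spleen replicate 1 (0.97) or 3 (0.96). Bid was under 2-fold over the mean of its probe sets (-0.90). Of 24 measured p53 targets 7 were higher and 0 lower (median 0.13), 4 of them outside the immediate early and epithelial lists: Cdkn1a, Fas, Plk2 and Gadd45a. Gadd45a, a DNA damage and stress protein, lay at 8.03, 8.54, 9.18 and 8.34 in the gland arrays and 7.22, 7.23 and 7.21 in the spleen arrays (1.30 ± 0.26), and Plk2, a stress-induced kinase, rose from 3.64, 3.19 and 3.93 to 5.41, 6.06, 6.15 and 5.57 and stood at 8.13 in epithelium. Lncpint, a long noncoding RNA that p53 induces, lay at 6.86, 7.16, 8.72 and 7.07 in the gland arrays and 5.71, 5.10 and 5.15 in the spleen arrays (2.13 ± 0.40, adjusted p = 0.00163), again with gland replicate 3 above the others.

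Genes tied to quiescence and to glucocorticoids were among the higher ones. Of 24 measured KLF, FOXO and quiescence factors 7 were higher and 0 lower (median 0.19), with 3 of the 7 in the immediate early list. Klf2, which keeps lymphocytes resting and in circulation, lay at 9.28, 9.57, 9.33 and 10.002 in the gland arrays and 7.99, 8.13 and 8.18 in the spleen arrays (1.44 ± 0.22, adjusted p = 0.000252), higher in gland B cells than in gland CD4 T cells (8.14) and epithelium (6.79). Tsc22d3, the glucocorticoid-induced leucine zipper GILZ, lay at 9.91, 10.16, 10.30 and 10.24 in the gland arrays and 8.56, 8.27 and 8.71 in the spleen arrays (1.64 ± 0.18, adjusted p = 1.28e-05). Both genes had every gland array more than 1 unit above every spleen array. Klf9, a glucocorticoid-induced repressor, rose by 3.69-fold and Tob1, an antiproliferative protein, by 2.53-fold, and both were higher in epithelium (9.85 and 8.51). Over the mean of their probe sets Tsc22d3, Klf9 and Tob1 rose by less than 2-fold (0.98, 0.91 and 0.65). Of 18 glucocorticoid targets 8 were higher and 1 lower (median 0.56). Of the 8 higher targets 6 were outside the immediate early, interferon, secretory and epithelial lists. Only 3 of the 8 were at least as high in gland B cells as in epithelium. The lower one, Ddit4, an inhibitor of the growth kinase mTOR, lay at 8.996, 8.68, 8.93 and 8.78 in the gland arrays and 10.86, 10.65 and 10.79 in the spleen arrays (-1.92 ± 0.08, adjusted p = 4.6e-10), and it was as high in epithelium (10.80) and gland CD4 T cells (10.66) as in spleen B cells.

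Circadian clock genes gave 6 increases of 19 measured and 0 decreases (median 0.36). Per1, a repressor in the core loop and also a glucocorticoid target, lay at 8.16, 8.21, 8.82 and 8.42 in the gland arrays and 5.53, 5.87 and 5.58 in the spleen arrays (2.75 ± 0.24, adjusted p = 1.11e-06), a 6.7-fold increase above epithelium (6.64) and gland CD4 T cells (7.70). Bhlhe40, a repressor that responds to light and cytokines, lay at 9.72, 9.82, 10.09 and 9.94 in the gland arrays and 8.39, 8.35 and 8.34 in the spleen arrays (1.53 ± 0.14, adjusted p = 1.55e-06). Ciart, a further repressor of the loop, lay at 6.23, 6.67, 6.84 and 7.06 in the gland arrays and 5.39, 5.43 and 5.12 in the spleen arrays (1.39 ± 0.15, adjusted p = 1.12e-05). Each of these 3 had gland arrays well separated from the spleen arrays. Npas2, a partner of Bmal1, rose (1.08) but by less than 2-fold over the mean of its probe sets (0.58), as did Rora, an activator of the loop (0.71). Nfil3, which opposes D-box activators, lay at 6.11, 5.34, 7.14 and 5.60 in the gland arrays and 4.55, 4.75 and 4.20 in the spleen arrays. Of the 6 genes 2 were at least as high in gland B cells as in epithelium. Epithelium was higher for Bhlhe40 (10.16), Nfil3 (7.91) and Rora (7.65). The labels used here give no time of day of collection. The E-box CACGTG, at which clock factors bind, was in 2 of the 6 promoters of these genes in the table, those of Per1 and Ciart. It was in 9.24% of the promoters of all higher genes and in 6.02% of all promoters. The uncalled clock genes were not counted, and a match says nothing of binding.

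The TGF-beta pathway, which B cells use for IgA switching and restraint, gave 6 increases of 29 measured genes and 0 decreases (median 0.18). Most of the 6 are inhibitors. Bambi, a decoy receptor that blocks TGF-beta signals, lay at 7.19, 7.02, 7.82 and 7.13 in the gland arrays and 3.42, 3.65 and 3.69 in the spleen arrays (3.70 ± 0.27, adjusted p = 1.92e-07). Tgif1, a corepressor of Smad factors, lay at 8.55, 9.36, 9.60 and 8.79 in the gland arrays and 6.40, 6.56 and 6.59 in the spleen arrays (2.55 ± 0.24, adjusted p = 2.92e-06), and its relative Tgif2 rose by 2.22-fold, though by less than 2-fold over the mean of its probe sets (0.96) and without gland replicate 3 (0.95). Smad7, the inhibitory Smad, lay at 8.97, 9.26, 9.60 and 9.02 in the gland arrays and 7.63, 7.67 and 7.68 in the spleen arrays (1.55 ± 0.14, adjusted p = 1.26e-06). Bambi, Tgif1 and Smad7 were higher in gland B cells than in epithelium (6.55, 6.73 and 7.97). Smad1, a mediator of bone morphogenetic protein signals, lay at 8.56, 8.35, 8.08 and 8.24 in the gland arrays and 6.54, 6.90 and 6.92 in the spleen arrays, with a difference just under 2-fold over the mean of its probe sets (0.95). Tgfb3, a ligand, rose from 3.60, 3.55 and 3.61 to 5.64, 5.22, 6.73 and 5.46 and stood higher in epithelium (6.65). Smad3, the main signal carrier, differed by -0.54 (adjusted p = 0.000454).

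Cytokine brakes and kinase brakes rose in part. Socs3, which blocks Stat3 signalling, lay at 6.50, 6.38, 6.42 and 6.77 in the gland arrays and 3.73, 3.70 and 3.76 in the spleen arrays (2.78 ± 0.13, adjusted p = 5.89e-10), with both groups tight; epithelium stood at 7.34. It was 1 of 2 called among 17 such brakes, with Smad7. Of 10 JAK and STAT genes 0 were called (3 at an unadjusted p under 0.05, limma), and Stat3, at 0.81 ± 0.14 (adjusted p = 0.00105), was the nearest to 2-fold. MAP kinase feedback genes gave 6 increases of 26 and 0 decreases (median 0.10), 4 of them outside the immediate early list. Dusp4, a phosphatase of ERK, lay at 6.23, 5.96, 7.68 and 6.53 in the gland arrays and 3.66, 3.01 and 3.16 in the spleen arrays (3.32 ± 0.32, adjusted p = 2.76e-06), and Errfi1, an inhibitor of the EGF receptor, at 7.84, 7.98, 9.12 and 7.64 in the gland arrays and 6.03, 6.23 and 5.94 in the spleen arrays. Gland CD4 T cells were higher for Dusp4 (9.35), and epithelium was higher for Errfi1 (10.84). Trib1, a pseudokinase scaffold, rose by 2.72-fold and Dusp3 by 2.14-fold, just under 2-fold without gland replicate 3 (0.98).

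Of 27 heat shock chaperones 5 were higher and 0 lower (median 0.34). Hspa1b, the inducible HSP70, lay at 8.34, 8.12, 10.82 and 10.56 in the gland arrays and 5.18, 4.77 and 5.71 in the spleen arrays (4.24 ± 0.64, adjusted p = 0.000266), and Cryab, a small chaperone, at 4.94, 4.63, 6.80 and 7.09 in the gland arrays and 2.89, 3.61 and 3.36 in the spleen arrays. Gland replicates 3 and 4 were more than 1 unit above replicates 1 and 2 for both genes. Both were higher in epithelium, at 11.33 and 10.90. Dnajb9, a chaperone of the endoplasmic reticulum, lay at 9.42, 9.55, 9.93 and 9.51 in the gland arrays and 7.89, 7.84 and 7.84 in the spleen arrays (1.74 ± 0.13, adjusted p = 2.33e-07), at a level like that of epithelium (9.50). Bag3 rose (1.81) and Dnajb4 rose by 2.88-fold on the probe set used. Another Dnajb4 probe set, dim in both groups, went the other way (-1.50). Over the mean of its probe sets Dnajb4 was not called (0.65, limma adjusted p = 0.053). Of 32 genes of the unfolded protein response 3 were higher, and Dnajb9 was the only one of them outside the immediate early list.

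Markers of other B cell stages gave some calls in each list, to be read beside 2.58% of all genes called higher and 1.6% called lower. Of 11 follicular genes 2 were higher, Gpr183 and Klf2, while Fcer2a, the follicular marker CD23, differed by 0.02 with a 95% interval of -0.38 to 0.42. Of 16 germinal centre genes Fas was higher and Rgs13 lower; Bcl6, the germinal centre master factor, differed by 0.22 (adjusted p = 0.271). Of 14 plasma cell genes only Tnfrsf17, the survival receptor BCMA, was called, and it was lower, at 4.26, 4.16, 4.28 and 4.06 in the gland arrays and 5.83, 5.61 and 4.77 in the spleen arrays, just under 2-fold without spleen replicate 1 (-0.998). Jchain, which joins IgM and IgA units, lay at 9.86, 9.57, 9.68 and 9.43 in the gland arrays and 11.22, 11.15 and 11.19 in the spleen arrays; the model gave -1.55 ± 0.76 and did not call it (adjusted p = 0.191), although the gland and spleen arrays did not overlap. The shared spread takes in the CD4 T and epithelium arrays, whose values for Jchain varied more than those of the B cells; with the B cell arrays alone it passed both limits (-1.55, adjusted p = 7.51e-05). Of 16 B-1 cell genes Ctla4 was higher and Cd9 and Il5ra lower; Ctla4, an inhibitory receptor that is abundant in gland CD4 T cells (11.37), lay at 5.88, 6.15, 6.57 and 6.18 in the gland arrays and 4.80, 4.32 and 4.60 in the spleen arrays. Il5ra, the interleukin 5 receptor of B-1 and marginal zone cells, lay at 5.75, 5.33, 5.84 and 5.22 in the gland arrays and 7.06, 6.64 and 6.39 in the spleen arrays, under 2-fold without spleen replicate 1 (-0.98). Of 15 memory and age-associated genes 4 were higher (Cxcr3, Klf2, Cd86 and Fas), with a median of 0.41, and 2 remained called without spleen replicate 3.

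Cd86, a costimulatory ligand for T cells, lay at 7.44, 7.63, 7.71 and 7.44 in the gland arrays and 6.27, 6.55 and 6.66 in the spleen arrays (1.06 ± 0.29, adjusted p = 0.0182), and its partner Cd80 differed by 0.10 (adjusted p = 0.678). The Cd86 call was lost without spleen replicate 1 (0.95, limma adjusted p = 0.079) or 2 (1.09, adjusted p = 0.0516). It was also lost over the mean of its probe sets (0.78, adjusted p = 0.149). With the B cell arrays alone the adjusted p of Cd86 was 0.000792. Of 31 costimulation and checkpoint genes Cd86 and Ctla4 were the 2 called. Regulatory B cell genes split into 3 higher and 4 lower of 19. Fgl2, a secreted suppressor of T cells, lay at 6.02, 6.30, 6.43 and 6.33 in the gland arrays and 4.13, 3.40 and 4.07 in the spleen arrays (2.40 ± 0.28, adjusted p = 2.7e-05). Il10, the suppressive cytokine, lay at 2.93, 2.95, 3.89 and 3.30 in the gland arrays and 2.14, 1.94 and 1.998 in the spleen arrays (1.24 ± 0.20, adjusted p = 0.00051), so its increase took place below the median of all values, whereas gland CD4 T cells stood at 9.34. Il12a, a subunit of interleukins 12 and 35, fell, at 5.43, 6.20, 5.25 and 6.01 in the gland arrays and 7.08, 7.19 and 7.33 in the spleen arrays (-1.48 ± 0.20, adjusted p = 0.000115), and so did its partner in interleukin 35, Ebi3, at 6.43, 6.74, 6.47 and 6.75 in the gland arrays and 7.56, 7.74 and 7.68 in the spleen arrays. Of 37 cytokines 3 were higher and 4 lower: besides those named, Il18, an inflammasome cytokine, fell (5.87, 5.93, 5.39 and 5.28 in the gland arrays and 6.81, 7.33 and 7.11 in the spleen arrays), Il16, a CD4 ligand, fell just past the 2-fold limit, and Csf1, the macrophage growth factor, rose (1.18) with gland replicate 3 lowest of the gland arrays, at 6.13, 6.17, 5.09 and 6.08. Over the mean of their probe sets both were under 2-fold (Il16 -0.87, Csf1 0.46), and Il16 also without gland replicate 3 (-0.86). Of 38 cytokine receptors Tnfrsf17 and Il5ra were lower and Tnfrsf1b, the second tumour necrosis factor receptor, was higher, at 6.93, 6.70, 8.50 and 6.83 in the gland arrays and 5.62, 6.16 and 6.36 in the spleen arrays. Gland replicate 3 carried much of the Tnfrsf1b difference, which was 0.77 without it and 0.68 over the mean of its probe sets. The limma adjusted p of Tnfrsf1b was 0.0294 with all groups in the model and 0.0943 with the B cell arrays alone. Without spleen replicate 1 it was 0.131 and without spleen replicate 2 it was 0.0673.

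Of 47 transcription factors of B lineage and effector cells 5 were higher and 3 lower (median 0.05). Id2 and Id3, both inhibitors of E proteins, went in opposite directions. Id2 lay at 6.93, 6.89, 7.89 and 6.89 in the gland arrays and 5.34, 5.30 and 5.66 in the spleen arrays (1.72 ± 0.19, adjusted p = 1.54e-05), and Id3 at 6.92, 7.09, 6.78 and 7.003 in the gland arrays and 8.33, 8.17 and 8.39 in the spleen arrays (-1.35 ± 0.13, adjusted p = 2.23e-06). Id2 was higher in gland CD4 T cells (9.10) and epithelium (8.96) than in gland B cells, with gland replicate 3 about 1 unit above the other gland B arrays. Id3 was higher in epithelium (8.15) than in gland B cells and nevertheless fell from spleen to gland in B cells. Ebf1 (0.10), Bcl6 and Prdm1 (-0.59) were not called.

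Innate sensing, antigen presentation and adhesion lists had 1 call or few, beside 4.18% of all genes called in either direction. Tlr7, the endosomal sensor of single-stranded RNA that autoreactive B cells use, lay at 9.21, 8.75, 7.85 and 8.87 in the gland arrays and 7.40, 7.48 and 7.29 in the spleen arrays (1.28 ± 0.35, adjusted p = 0.0196) and was the only one of 24 Toll-like receptors and adaptors called. It was lost without gland replicate 1 (adjusted p = 0.0557) and without any of the 3 spleen arrays, and replicate 3 was the lowest gland array. Tlr9, the DNA sensor, differed by 0.27 (adjusted p = 0.122). Of 20 genes of MHC class II presentation only Ctsl, a lysosomal protease, was higher (2.67), and it stood at 10.42 in epithelium. Of 28 S100, annexin and galectin genes 3 were higher: Anxa2 (1.25), S100a6 (1.07) and Lmna (1.90), a lamin. Lmna lay at 6.15, 6.32, 8.77 and 6.16 in the gland arrays, so replicate 3 alone was above 7, and with the B cell arrays alone its adjusted p was 0.0664. S100a6 was under 2-fold without gland replicate 1 (0.86) or spleen replicate 2 (0.79), and its adjusted p was 0.0504 with the B cell arrays alone. All 3 were higher in epithelium than in gland B cells.

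Metabolic lists gave few calls or none. Of 39 genes of oxidative phosphorylation 0 were called, although 21 had an unadjusted p under 0.05 (limma), and the median was -0.18. Of 41 cytosolic ribosomal protein genes 0 were called, with 3 at an unadjusted p under 0.05 and a median of -0.02. Among 23 genes of glycolysis Pfkl, a phosphofructokinase, rose (1.12 ± 0.17, adjusted p = 0.000283), and among 23 of cholesterol handling Insig1, which restrains synthesis, rose (1.06 ± 0.17, adjusted p = 0.000411); both were close to 2-fold and under it in some alternatives, Pfkl over the mean of its probe sets (0.62) and Insig1 without gland replicate 3 (0.93). Cd36, a fatty acid and lipoprotein scavenger that marginal zone B cells carry, fell, at 4.46, 4.67, 4.84 and 4.37 in the gland arrays and 6.84, 6.68 and 7.15 in the spleen arrays (-2.30 ± 0.14, adjusted p = 1.67e-08), and its 3 probe sets ranged from -2.30 to -3.14. Dgat2, which completes triglycerides, rose (1.41), averaged over its probe sets by less than 2-fold (0.77), and stood far higher in epithelium (9.52). Of 20 hypoxia targets Egln3 and Epas1 rose and Ddit4 fell, with epithelial levels of 9.29 and 10.65 against 4.97 and 4.99 in gland B cells. Epas1 was under 2-fold over the mean of its probe sets (0.60).

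Of 25 genes of the NRF2 and oxidative stress list 2 rose. Mafk, a small Maf partner of NRF2, lay at 8.82, 8.93, 9.01 and 9.03 in the gland arrays and 7.30, 7.23 and 7.32 in the spleen arrays (1.66 ± 0.10, adjusted p = 2.63e-08), above gland CD4 T cells (7.69) and epithelium (7.58). Mt1, a metallothionein, rose (1.73) and was far higher in epithelium (10.11). Of 28 mRNA decay regulators 3 rose, among them Zc3h12a, the nuclease regnase-1 that degrades cytokine messages, at 7.89, 7.83, 7.97 and 7.52 in the gland arrays and 6.71, 6.89 and 6.76 in the spleen arrays; this was just over 2-fold and just under it without gland replicate 3 (0.96). Of 16 ectonucleotidase and adenosine genes Entpd3 rose (1.44) and Pde4d, a cyclic AMP phosphodiesterase, fell (-1.24). Slc38a2, a glutamine transporter, was the only one of 27 ion channels and transporters called, just over 2-fold and just under it without gland replicate 3 (0.93). Cd9 was the only one of 20 tetraspanins, and Pigr, of the secretory list, and Myc, of the immediate early list, were the only calls of 13 Fc receptor and 27 ribosome biogenesis genes. None of 9 SLAM family genes or 10 genes of immunoglobulin constant regions and class switching was called, with 0 and 3 at an unadjusted p under 0.05 (limma).

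Further single genes were higher. Gla, the lysosomal alpha-galactosidase A, lay at 8.22, 7.92, 9.42 and 8.12 in the gland arrays and 4.68, 5.28 and 5.20 in the spleen arrays (3.36 ± 0.35, adjusted p = 7.02e-06), a 10.3-fold increase to a level above epithelium (5.54) and gland CD4 T cells (7.23). Mapk12, the stress kinase p38 gamma, lay at 8.50, 8.44, 8.02 and 8.40 in the gland arrays and 5.87, 6.05 and 5.88 in the spleen arrays (2.41 ± 0.17, adjusted p = 1.16e-07), and epithelium stood at 7.91. Utp14b, an RNA processing factor of the ribosome, lay at 5.55, 4.69, 5.52 and 5.06 in the gland arrays and 2.50, 2.88 and 2.94 in the spleen arrays. Car2, carbonic anhydrase and a member of the red cell list, lay at 9.50, 9.37, 9.41 and 9.49 in the gland arrays and 7.59, 8.01 and 8.05 in the spleen arrays, above gland CD4 T cells (6.99) and epithelium (8.19). Among properly named genes lower in gland B cells than in epithelium and outside the 4 kinds of list, the 5 largest increases were Sval2 (6.83), Nupr1 (5.71), Dnase1 (5.61), Slc27a2 (4.64) and Hspa1b (4.24). Sval2, a gene related to seminal vesicle antigen, lay at 11.11, 10.74, 8.22 and 9.95 in the gland B arrays and 12.08, 11.79 and 11.74 in the epithelium arrays. Nupr1, a stress protein, lay at 10.44, 10.52, 8.12 and 9.63 and 12.31, 12.32 and 12.26. Gland replicate 3 was the lowest gland B array for Sval2, Nupr1, Dnase1 and Slc27a2, unlike for Hspa1b.

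The B cell change was set against the CD4 T cell change by a test of the difference, which took their arrays as independent. Nothing says whether B and CD4 T cells came from the same animals. Same-numbered arrays did not as a rule deviate together, but some gland arrays of unlike numbers did. The B change was above the CD4 T change in 208 genes (1.22%) and below it in 661 (3.87%); with arrays centred on their medians the counts were 308 and 551. Of the 273 lower genes in B cells 60 (22%) were also lower in CD4 T cells, and of the 441 higher genes 277 (62.8%) were also higher there, against 1.62% and 5.35% of all genes called in CD4 T cells. Of the lower B cell genes 132 (48.4%) and of the higher ones 100 (22.7%) had a called difference between the changes. Dtx1 and Sox4 fell in both subsets, with B cell differences of -2.02 and -3.44 and CD4 T cell differences of -2.40 and -2.46. Pmaip1, Bambi and Rgs1 rose in both, by 4.12, 3.70 and 4.47 for B cells and 3.57, 3.25 and 3.29 for CD4 T cells, and the differences between their changes were not called.

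Among properly named genes that were called in B cells, did not overlap between arrays and lay above the median of all values in gland or spleen B cells, the B change was lowest against CD4 T cells for Tsga13 (-4.62 ± 0.18, adjusted p = 3.78e-10), Mgst1, Ffar2, Tmem26 and Il18. Tsga13 (2.16 and 2.27) and Ffar2 (4.11 and 4.35) lay below that median in gland and spleen CD4 T cells. They could hardly fall there, so their difference adds little to the B cell decrease. Mgst1, a glutathione transferase, and Il18 fell in B cells (-2.29 and -1.47) and had positive differences in CD4 T cells (2.07 and 2.31). Cell division genes belonged here too: the difference was called below 0 in 18 of 37, and the list median was -0.76 for B cells against 0.27 for CD4 T cells. Il10, dim in B cells, had a lower difference still (-5.74). At the other end of the same set, Ccr9 had the highest difference (4.45 ± 0.70, adjusted p = 0.000486), with a level of 7.41 in spleen and 5.09 in gland CD4 T cells. Ptprf, a receptor phosphatase of epithelia, Amigo2, an adhesion protein, Trpm1, a cation channel, and Ppm1h, a phosphatase, followed, with differences of 3.91, 3.48, 2.97 and 2.92. The Trpm1 increase in B cells was under 2-fold over the mean of its probe sets (0.77). Amigo2 lay at 8.26, 8.23, 9.39 and 8.40 in the gland arrays and 7.12, 6.90 and 7.35 in the spleen arrays in B cells and fell in CD4 T cells from 9.52 to 7.49. Ptprf and Ppm1h stood higher in epithelium (10.64 and 9.96) than in gland B cells.

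**Figure D5:**
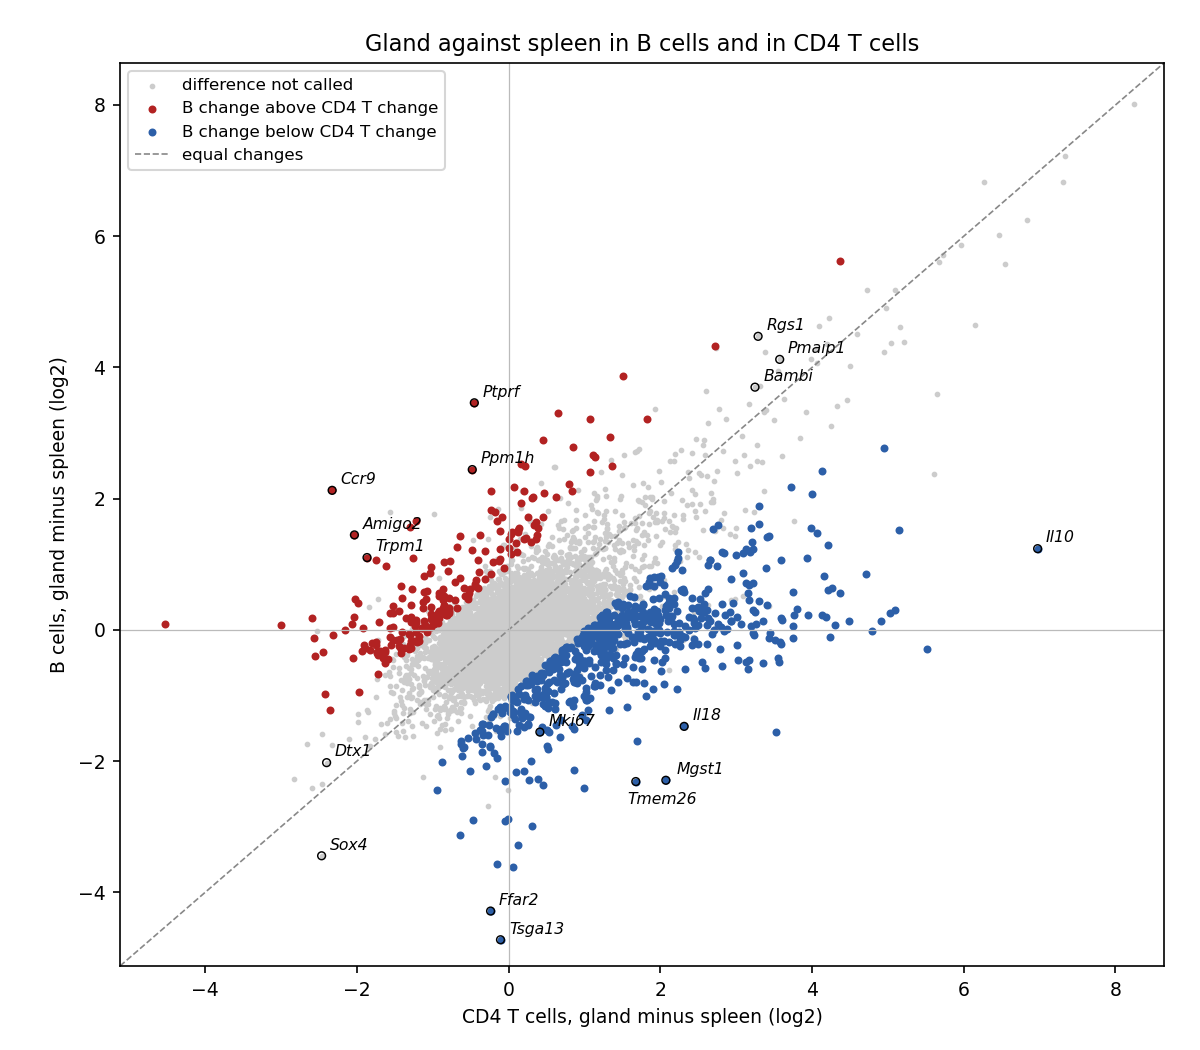
Each point is 1 of 17097 genes, with the gland minus spleen difference in CD4 T cells on the x axis and in B cells on the y axis, in log2 units. Red and blue points are the 208 and 661 genes whose B change was called above or below the CD4 T change, and the dashed line marks equal changes. Tsga13 and Ffar2 lie low on the line of no CD4 T change, Ccr9 and Ptprf lie high at the left, and Rgs1, Pmaip1 and Bambi lie near the dashed line.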

How the data were processed

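For each of 17 arrays the authors deposited log2 levels of 45141 probe sets, computed with Partek and RMA, per the submitters' processing notes; versions are not given in the sources used here. Amplified, biotin-labelled RNA of sorted cells was hybridised, per the labels' protocols, and a few samples of lower RNA integrity could not be matched to arrays. Values ran from 0.492 to 12.95 (median 4.71). Arrays were grouped by title. Probe sets were named from the platform annotation, with symbols updated by gene identifier (GRCm38.p6, names only): 28898 had 1 gene, 551 several and 15588 were not listed. Each of 17097 genes was represented by its brightest probe set, judged by the mean of the 17 arrays; genes without one were not analysed here.

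A mean for each of 5 groups was fitted over the 17 arrays with limma 3.58.1 in R 4.3.3 (lmFit and eBayes, 12 residual and 3.17 prior degrees of freedom). Calls needed a Benjamini-Hochberg adjusted p under 0.05 and a 2-fold difference. Differences carry the model's SE, whose median was 0.121 for gland against spleen B cells and 0.172 for the difference from CD4 T cells, a precision set by the number of arrays. On simulated data, shifts of 1.5 were recovered for 94.5% of 200 genes (89% for the difference), with 0 and 2 false calls. The 54 programme lists, the members and the tests were chosen with earlier results of these data known. Genes were named by rule: among called genes without overlap, with a proper symbol (no Gm, Rik, LOC or, added later, accession symbols; no antigen receptor segments), outside the 4 kinds of list and above the median level, the 15 largest decreases, the 15 largest increases at or above and the 5 below the epithelial level, up to 4 called genes a list and the 5 extreme differences on each side; further list members, and Car2, Clec10a, Ms4a7 and S100a8 of the other cell types, were named after their values were seen. Samples with equal replicate numbers did not deviate together (correlations -0.11 to -0.01), so arrays were taken as unpaired. Promoters are from RefSeq. Alternatives were other probe set rules, filters, normalizations, eBayes settings, array weights, a replicate block, only the B cell arrays, and leaving out genes or single arrays. Figures were drawn with matplotlib 3.10.9.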

Additional observations from a re-analysis of the deposited data

Results flagged for a closer look

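In 14 of the 168 named genes checked, 1 of the 4 gland B arrays lay farther from the other 3 than a Dixon test at the 95% level allows, which chance gives in about 1 of 20 groups. In most of them it was replicate 3, with Dnase1l3 at 5.80, Lncpint at 8.72, Rel at 10.23, Tnfrsf1b at 8.50, Cdkn1a at 8.16, Id2 at 7.89, Lmna at 8.77, Amigo2 at 9.39, Prdm1 at 5.78 and Csf1 at 5.09 on the log2 scale. For Rel, Lncpint, Tnfrsf1b, Cdkn1a, Id2, Lmna and Amigo2, which were called higher, replicate 3 was the highest gland array, and without it the calls of all but Tnfrsf1b were kept. Replicate 4 stood apart for Vpreb3 at 8.37 and Hmmr at 3.79. Replicate 1 stood apart for Ms4a7 at 4.89. Replicate 2 stood apart for Notch2 at 4.64.

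In 74 named genes the gland minus spleen change differed between B and CD4 T cells by limma's test of the difference, 19 with a B change above and 55 with one below the CD4 T change. Some lower genes, among them Tsga13, Ffar2, Wfdc21, Ackr2, S1pr3 and Cd36, lay below the median of all values in CD4 T cells of both tissues. A decrease could hardly be seen there, so their difference adds little to the B cell decrease. Values in brackets are B change minus CD4 T change in log2 units. Among genes lower in gland B cells the B change was below that of CD4 T cells for Tsga13 (-4.62), Mgst1 (-4.36), Ffar2 (-4.05), Tmem26 (-3.99), Il18 (-3.78), Wfdc21 (-3.67), Ackr2 (-3.40), Stom (-3.40), Ackr3 (-3.30), Myb (-2.87), Dnase1l3 (-2.82), Nebl (-2.48), Ube2e2 (-2.43), Bub1 (-2.38), S1pr3 (-2.35), Ms4a7 (-2.30), Hmmr (-2.29), Nusap1 (-2.28), Cd36 (-2.25), Aurkb (-2.10), Ebi3 (-2.09), Tk1 (-2.07), Cdk6 (-2.06), Mki67 (-1.97), Rrm2 (-1.82), Il12a (-1.69), Birc5 (-1.65), Mxd4 (-1.63), Cd9 (-1.59), Vpreb3 (-1.52), Niban3 (-1.49), E2f8 (-1.49), Top2a (-1.44), Hes5 (-1.42), Cd93 (-1.42), Rag1 (-1.41), Tnfrsf17 (-1.38), Bid (-1.35), Asb2 (-1.32), Ddit4 (-1.31) and Cd1d1 (-1.11).

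Among genes higher in gland B cells the B change was nonetheless below that of CD4 T cells for Il10 (-5.74), Bhlhe40 (-3.62), Cdkn1a (-2.59), Nfil3 (-2.44), Fscn1 (-1.93), Ctla4 (-1.68), Csf1 (-1.66), Rgs2 (-1.54), Klf9 (-1.42) and Egln3 (-1.15). It was above that of CD4 T cells for Smad7 (1.16), Npas2 (1.19), Fas (1.24), Id2 (1.27), Tsc22d3 (1.27), Mapk12 (1.33), Smad1 (1.39), Car2 (1.41), Cd8a (1.43), Flt3 (1.63), Klf2 (1.82), Socs3 (1.93), Tgfb3 (2.10), P2ry14 (2.65), Ppm1h (2.92), Trpm1 (2.97), Amigo2 (3.48), Ptprf (3.91) and Ccr9 (4.45). Genes with a called difference and no call in B cells were Jchain (-5.07), Prdm1 (-2.92), Nfkbia (-1.92) and Cxcr5 (-1.17).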

How the results depend on the processing

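Gland against spleen in B cells stayed at 365 to 464 higher and 213 to 298 lower genes under the dim gene filter, probe set, centring, quantile, eBayes, array weight and B-cell-arrays-only alternatives and with any array left out. Without a fold change minimum 1332 genes were higher and 1687 lower (3019 in all), and the B change was above the CD4 T change in 611 and below it in 1120 (1731 in all). Leaving out genes whose epithelial level was 4-fold or more above spleen B cells gave 177 higher genes (439 in all), and the same filter on gland CD4 T cell levels gave 231. The split of the difference from CD4 T cells, 208 above and 661 below, was 308 and 551 after centring and 264 and 596 after quantile normalization. No result reversed. With the replicate number as a block, although nothing shows that the numbers pair the samples, 424 genes were higher and 279 lower (703 in all), and the difference from CD4 T cells was called in 171 above and 567 below (738 in all). No gland array correlated best with the spleen array of its own number. Same-numbered B and CD4 T arrays had correlations of 0.215, -0.397, -0.125 and 0.068 in the gland and -0.027, -0.054 and 0.067 in the spleen. Gland arrays of unlike numbers reached 0.414 (B 2 with CD4 T 1) and 0.355 (B 3 with CD4 T 2). Whether B and CD4 T cells shared animals was not tested, and these correlations cannot decide it. Of 145 named genes called, 86 kept their call under every alternative and 113 with any 1 B cell array left out; 36 were lost over the mean of their probe sets. Among list counts without gland or spleen B replicate 3, an alternative added after the data were seen, 196 stayed within 1.5 times and 20 did not, each of them moving by 1 or 2 genes. Depth has no counterpart on arrays: 4 against 3 arrays, and levels under the median of all values such as those of Il10 and Rgs13, limit what could be called.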
